A study of Mus musculus with 12 samples.

Results

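The pyruvate dehydrogenase complex of triceps brachii muscle, with the kinases that switch it off and a phosphatase that switches it on, was described gene by gene in 12 mice. The genes were chosen by symbol: the subunits Pdha1, Pdhb, Dlat, Dld and Pdhx, the kinases Pdk1, Pdk2, Pdk3 and Pdk4, and the phosphatase Pdp1. Of these 10 genes, 9 had a row among the 10187 genes of the table, and Pdk3 was not analysed here. All 9 were among the 7247 genes tested, which had a mean of at least 10 normalized reads.

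RNA came from male C57/BL6 mice in 4 groups of 3, which crossed physical activity with myostatin genotype. Among inactive mice the wild-type group is called IW and the myostatin-reduced group IM, and AW and AM are the same genotypes among active mice. Myostatin-reduced mice carried floxed Mstn, and every mouse, wild-type included, ate chow with 0.025% tamoxifen for 6 weeks between 4 and 6 months of age, which activated Cre recombinase. The promoter driving Cre was not given in the sources used here. Active mice then had a running wheel for 12 weeks, each in a cage of its own, so running and single housing cannot be told apart.

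The complex joins glycolysis to the citric acid cycle. It stands in the mitochondrial matrix and turns pyruvate into acetyl-CoA, which commits carbohydrate carbon to oxidation. Pdha1 and Pdhb form the decarboxylase, Dlat the acetyltransferase core, Dld the lipoamide dehydrogenase, and Pdhx anchors Dld to the core. Kinases phosphorylate the Pdha1 protein and stop the reaction, and Pdp1 removes the phosphate. Pdk4 is known in muscle for its induction by fasting and by fatty acids, which spares glucose.

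Values were normalized read counts, scaled by the authors to an equal trimmed mean and not divided by gene length. Estimated depth was about 9020000 to 12180000 reads per mouse, and at least 787 reads stood behind each value of a member, for a counting error of at most 3.56%. The targeted gene Mstn was 79.7 to 138 in wild-type and 8.70 to 21.6 in myostatin-reduced mice, without overlap. All 6 muscle markers (Acta1, Ckm, Des, Mb, Myh4 and Myh1) were present in every library, from a lowest value of 284 for Mb to a highest of 106795 for Myh4, both in IM mice. Of these, Mb and Myh1 were higher and Myh4 lower in active mice, as given with the fibre markers. Of the blood markers, Hba-a1, Hbb-b1 and Slc4a1 were not analysed here.

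With activity, 6 genes rose: the 5 subunits and the phosphatase Pdp1. Estimated increases were between 20.15% for Pdha1 and 29.7% for Pdhx. The kinases Pdk1, Pdk2 and Pdk4 did not pass the test. The call required an adjusted p-value under 0.05 in limma, over all genes tested. Of all genes tested, 14.5% were called with activity in either direction and 7.99% were called higher, against 6 of 9 members higher and 0 lower. The median log2 change of the 9 members was 0.335, and that of all genes was -0.022. In whole muscle, a change in the share of a fibre or cell type and a change in RNA per cell cannot be told apart.

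**Figure D1:**
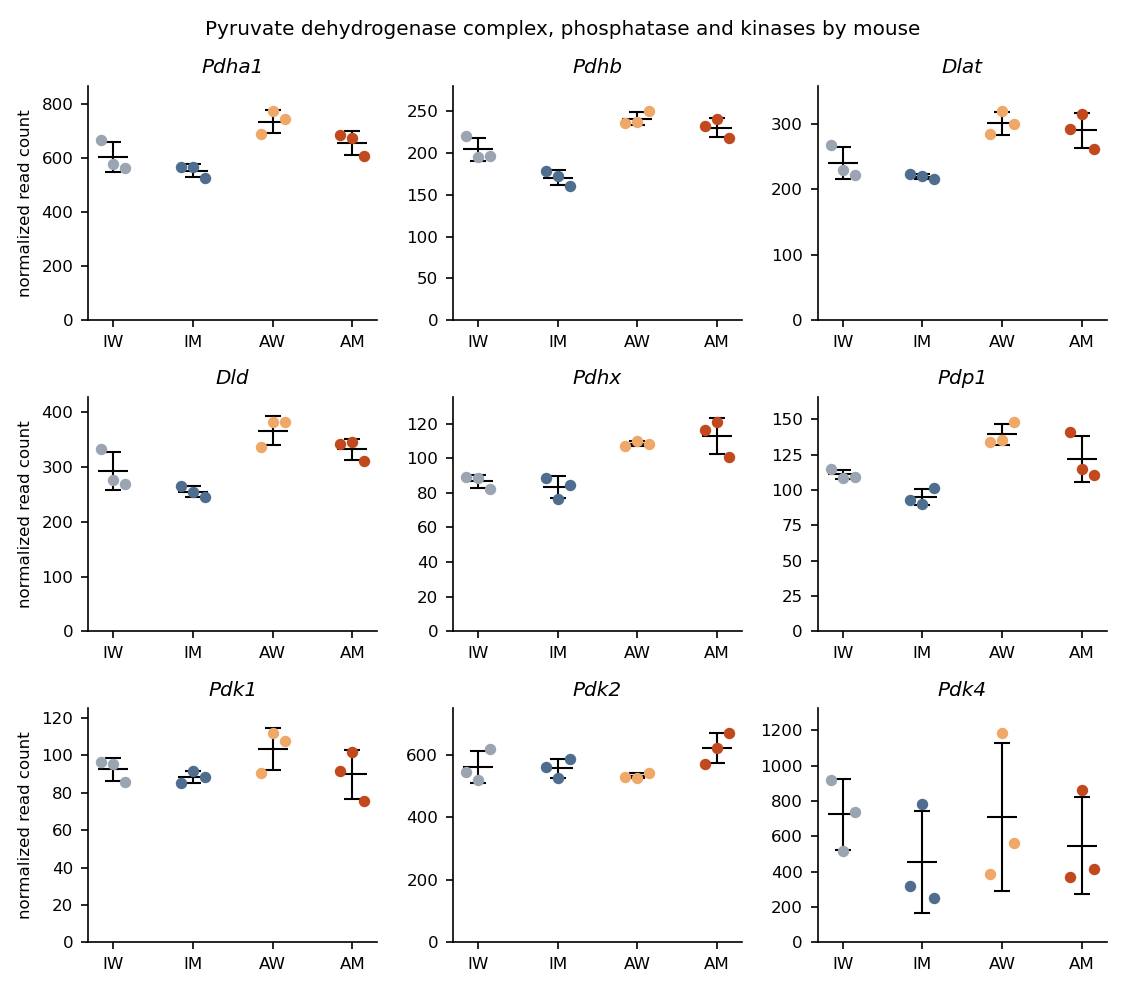
Normalized read count (y axis, from 0) of each of 9 genes in the 12 mice, by group (I inactive, A active, W wild-type, M myostatin-reduced). Points are mice, and black bars are the mean and SD of 3 mice. In Pdha1, Pdhb, Dlat, Dld, Pdhx and Pdp1, all active mice lie above all inactive mice of the same genotype, whereas the Pdk4 points spread widely inside every group.

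Pdha1 (chrX:156560141-156576345, minus strand, build NCBIM37) encodes the alpha subunit of the decarboxylase, which carries the sites the kinases phosphorylate. In IW mice 1, 2 and 3 its normalized read count was 668, 577 and 565, and in IM mice 567, 568 and 527. They were 688, 774 and 744 in AW mice and 687, 675 and 607 in AM mice. Active mice were above inactive mice within each genotype, although IW mouse 1 was above AM mouse 3. The log2 change was 0.265 (SE 0.0576, limma adjusted p = 0.0110). Exons of Pdha1 share 603 of their 3774 bases with Map3k15 on the opposite strand, and whether strand was used in counting was not stated.

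Pdhb (chr14:8998505-9005506, minus strand) encodes the beta subunit, the partner of the Pdha1 protein. It measured 219.9, 195 and 196 in IW mice and 179, 172 and 160.3 in IM mice. In AW mice it was 236, 236 and 249, and in AM mice 232, 241 and 218. IM mice were the lowest group, with every IM mouse below every other mouse. The change with activity was 0.335 (SE 0.0491, limma adjusted p = 0.00179).

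Dlat (chr9:50442738-50467885, minus strand) encodes the acetyltransferase, whose lipoyl arms carry the acetyl group. Its counts were 267, 230.3 and 222 in IW mice and 223, 220.0 and 216 in IM mice. They were 284, 319 and 299.6 in AW mice and 293, 316 and 262 in AM mice. Again the levels of active and inactive mice did not overlap within a genotype. Dlat rose by 0.36 on the log2 scale (SE 0.0603, limma adjusted p = 0.00284).

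Dld (chr12:32016429-32036302, minus strand) encodes the dehydrogenase that reoxidizes the lipoyl groups, a protein shared with the 2-oxoglutarate and branched-chain complexes. It stood at 333, 276 and 269 in IW mice and at 265, 254 and 246 in IM mice. AW mice had 336, 382 and 382, and AM mice 342, 345 and 310.5. The lowest active mouse, AM mouse 3, was below IW mouse 1 but above the remaining inactive mice. The change was 0.35 (SE 0.0618, limma adjusted p = 0.00370).

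Pdhx (chr2:102861232-102913670, minus strand) was measured at 89.0, 88.6 and 82.3 in IW mice and at 88.8, 76.7 and 84.5 in IM mice. Active mice had 107, 110.0 and 108 in the wild-type group and 116, 121 and 101 in the myostatin-reduced group. Pdhx alone among the 9 members had no overlap over all 12 mice, the lowest active mouse being at 101 and the highest inactive mouse at 89.0. The share of all genes without overlap over the 12 mice was not counted. Its change was 0.375 (SE 0.0552, limma adjusted p = 0.00179).

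Pdp1 (chr4:11885331-11893599, minus strand), the catalytic subunit of a phosphatase that reactivates the complex, rose together with the subunits. Counts were 115, 109 and 109 in IW mice and 92.9, 90.4 and 102 in IM mice. They were 134, 136 and 148 in AW mice, and 141, 114 and 110.4 in AM mice. Pdp1 rose by 0.34 (SE 0.0626, limma adjusted p = 0.00484).

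Complete separation within both genotypes was seen in 6 of 9 members, and in 4.84% of all genes tested every active mouse was above every inactive mouse in this way. Active and inactive mice of different genotype overlapped in Pdha1, Pdhb, Dlat, Dld and Pdp1. In each, the highest inactive mouse was IW mouse 1 and the lowest active mouse was AM mouse 3. All 6 genes remained called in each of the 12 fits that left out a mouse.

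Among the kinases, Pdk1 (chr2:71711281-71741915, plus strand), a kinase known as a target of hypoxia signalling, was at 96.4, 95.4 and 85.6 in IW mice and 85.3, 91.4 and 88.6 in IM mice. It was 90.7, 112 and 108 in AW mice and 91.7, 102 and 75.7 in AM mice. Active and inactive mice overlapped in both genotypes. The change with activity was 0.08 with a 95% interval of -0.08 to 0.25 (limma adjusted p = 0.480).

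Pdk2 (chr11:94887572-94902668, minus strand), a kinase expressed in most tissues, had 543, 520.1 and 617 in IW mice and 562, 524 and 585 in IM mice. It had 530.0, 526 and 542 in AW mice and 572, 622 and 669 in AM mice. AM mice were above AW mice without overlap, while the inactive groups overlapped. How many of all genes did so was not counted. Averaged over genotypes, the activity interval for Pdk2 ran from -0.08 to 0.165 around 0.04 (limma adjusted p = 0.641). A log2 rise as large as the 0.265 of Pdha1 lay outside it. By genotype, the change was -0.07 (interval -0.24 to 0.10) in wild-type and 0.155 (-0.02 to 0.33) in myostatin-reduced mice. The interval in myostatin-reduced mice held 0.265.

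Pdk4 (chr6:5433351-5446309, minus strand) was the most variable member. Its counts were 921, 520.2 and 739 in IW mice and 322, 784 and 253 in IM mice. They were 389, 1185 and 561 in AW mice and 368, 862 and 413 in AM mice. Every pair of groups overlapped. The highest mouse of a group was 1.77 times the lowest in IW, 3.10 times in IM, 3.04 times in AW and 2.34 times in AM mice. The within-group SD was 0.71 on the log2 scale, above that of 99.7% of the 2556 genes with a mean of at least 50, whereas the other members were above 22.6% to 74.7% of them. The change of Pdk4 with activity was 0.10 with an interval of -0.62 to 0.81 (limma adjusted p = 0.867), which holds the values of the subunits as well as 0.

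**Figure D2:**
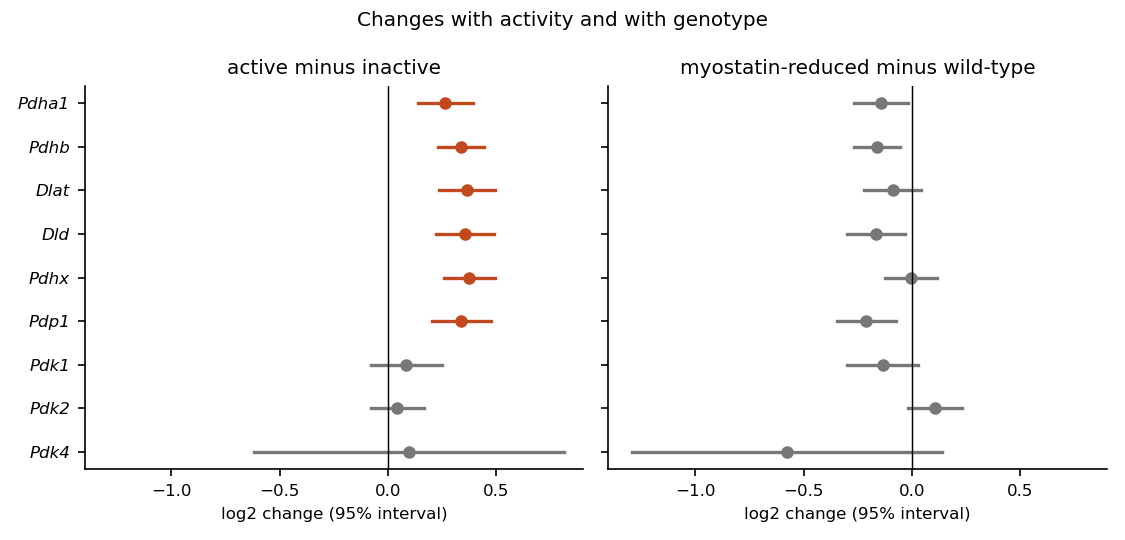
Log2 change (points) with its 95% interval (lines) of the 9 genes for active minus inactive mice (left) and myostatin-reduced minus wild-type mice (right), from limma on 12 mice. Red marks the 6 genes called at an adjusted p-value under 0.05, all on the left, and grey the rest. The interval of Pdk4 spans -0.62 to 0.81 for activity.

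The proximal promoters of the pair of subunits with a CCAAT box and of the pair of tested kinases with one are shown, chosen for this box. Each is the 250 bases before the annotated start, read 5′ to 3′ on the strand of the gene, from RefSeq (GRCm38.p6). Entries were found for all members but Pdp1. Capitals mark the CCAAT box, as CCAAT or, on the opposite strand, as ATTGG.
Pdhb (chr14:8172993-8173242, minus strand): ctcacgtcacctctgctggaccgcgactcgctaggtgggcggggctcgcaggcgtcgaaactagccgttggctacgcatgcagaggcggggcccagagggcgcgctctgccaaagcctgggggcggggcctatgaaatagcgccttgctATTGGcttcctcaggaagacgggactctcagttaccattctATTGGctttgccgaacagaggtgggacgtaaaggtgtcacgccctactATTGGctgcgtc
Dld (chr12:31351472-31351721, minus strand): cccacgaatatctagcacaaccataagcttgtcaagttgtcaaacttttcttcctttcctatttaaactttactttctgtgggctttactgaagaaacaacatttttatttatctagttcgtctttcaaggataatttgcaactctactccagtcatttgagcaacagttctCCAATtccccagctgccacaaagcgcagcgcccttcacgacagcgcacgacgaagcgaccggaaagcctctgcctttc
Pdk2 (chr11:95041372-95041621, minus strand): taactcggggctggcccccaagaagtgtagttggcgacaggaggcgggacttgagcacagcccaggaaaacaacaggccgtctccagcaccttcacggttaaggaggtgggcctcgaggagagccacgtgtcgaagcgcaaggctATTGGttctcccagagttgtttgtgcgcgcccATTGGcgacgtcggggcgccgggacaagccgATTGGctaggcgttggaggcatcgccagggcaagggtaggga
Pdk4 (chr6:5496279-5496528, minus strand): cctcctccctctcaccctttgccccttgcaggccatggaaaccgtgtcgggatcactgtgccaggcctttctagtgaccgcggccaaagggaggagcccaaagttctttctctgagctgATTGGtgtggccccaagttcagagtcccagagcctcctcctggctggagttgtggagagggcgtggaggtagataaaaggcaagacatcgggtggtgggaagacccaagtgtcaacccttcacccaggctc
The Pdhb window held 3 CCAAT boxes and the Dld window 1. Among the kinases, the Pdk2 window shown held 3 and the Pdk4 window 1, while another Pdk2 window, of a different annotated start (chr11:95040876-95041125), held none. The box was found in 33.9% of the 32851 RefSeq windows of this length. The Pdk3 window held 1. No CCAAT box was found in the windows of Pdha1, Dlat, Pdhx or Pdk1, which has a pair of them. The letters TNAAGGTCA (an estrogen-related receptor element), GTAAACA (a FoxO element) and GCATGCGC (an NRF1 core), searched on both strands, were in no window of a member and in 1.14%, 3.17% and 2.26% of all windows.

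Levels were compared between genes as normalized reads per kilobase of exon, with the union of annotated exons as the length. Pdk2 averaged 179.5 over the 12 mice, Pdk4 174, Pdha1 169, Pdhb 142 and Dld 139. The ranges of these 5 neighbours over mice overlapped. Dlat followed at 53.7, with every mouse below every value of Dld. Pdp1 at 25.9 and Pdhx at 24.9 overlapped, and Pdk1 at 12.0 was below both in every mouse. With the longest transcript as the length, Pdk2 was at 253, Pdha1 at 224, Pdk4 at 175, Pdhx at 39.0 and Pdk1 at 18.0, so the order of Pdk4 and Pdha1 and of Pdp1 and Pdhx turned.

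**Figure D3:**
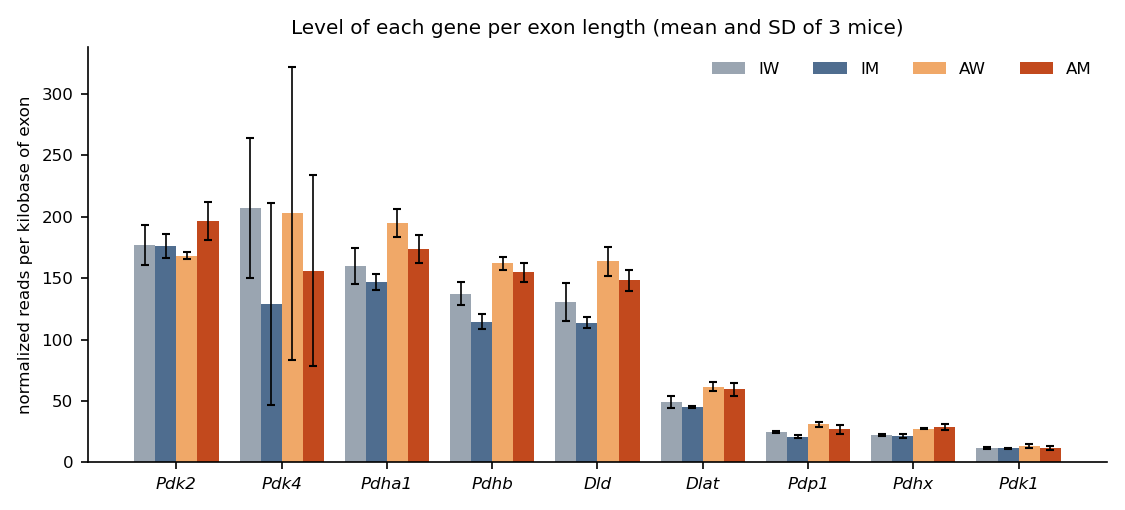
Normalized reads per kilobase of exon (y axis, from 0) of the 9 genes, ordered by their mean. Bars are group means and lines the SD of 3 mice, for the groups IW, IM, AW and AM. Pdk2, Pdk4, Pdha1, Pdhb and Dld stand high, and Pdk1 is the lowest at 12.0.

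Shares were taken of the summed level per kilobase of Pdk1, Pdk2 and Pdk4, without Pdk3. Pdk2 and Pdk4 made up most of this sum, and Pdk1 3.06% to 3.69% in the group means. The share of Pdk4 was 51.6% ± 6.64 in IW, 38.4% ± 15.2 in IM, 49.9% ± 13.8 in AW and 41.3% ± 10.9 in AM mice (SD, n = 3). These spreads overlapped between groups. With the longest transcript as the length, the share of Pdk4 was 31.3% to 43.3% in the group means, and Pdk2 had the larger share in each group. The ratio of the Pdk4 count to the Pdk2 count ran from 0.433 in IM mouse 3 to 2.25 in AW mouse 2.

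Proportions among the subunits varied little from mouse to mouse. The coefficient of variation of the ratio over the 12 mice was between 4.01% (Dlat to Dld) and 9.003% (Pdha1 to Pdhx) over the 10 pairs of subunits. The ratios of the 5 subunits and Pdp1 varied by 9.21% to 14.65% against Pdk1, where Pdha1 was lowest, by 15.7% to 19.4% against Pdk2 and by 41.25% to 46.1% against Pdk4. Pearson's r of the log2 values over the 12 mice was 0.797 to 0.981 for the 10 pairs of subunits. After the group means were removed it was 0.503 to 0.957. The mice share groups and scaling, so these values are a description.

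The comparison of genotypes asked whether lower myostatin changed the same genes. It called 0 of 9 members in limma, against 5.78% of all genes tested. Before adjustment, 4 of 9 members and 1628 of the 7247 genes were under 0.05. Estimates were below 0 in 8 members, and the median was -0.143 against -0.0049 for all genes. The estimates farthest below 0 among the subunits and Pdp1 were -0.21 for Pdp1 (limma adjusted p = 0.0714), -0.17 for Dld (adjusted p = 0.134) and -0.16 for Pdhb (adjusted p = 0.0777). Pdk4 was at -0.57 with an interval of -1.29 to 0.14 (limma adjusted p = 0.333), and at -0.82 to -0.35 in the fits that left out a mouse. Pdp1 was called with sample weights and without AM mouse 1 (adjusted p = 0.0229 and 0.0171 in limma). Fibre markers also moved with genotype: in myostatin-reduced mice Mb was lower, at -1.26 (limma adjusted p = 0.0206), the fast-fibre gene Actn3 was higher by 0.475 (adjusted p = 0.0392), and all 10 slow-fibre markers had estimates below 0 (median -1.38) with 0 called. With the slow-fibre score as a covariate the genotype estimates of the subunits and Pdp1 ran from -0.177 (Pdp1) to 0.024 (Pdhx), with Pdha1 at -0.085, Pdhb at -0.124, Dlat at -0.025 and Dld at -0.10. Pdk1 was then at -0.05 and Pdk4 at -0.25, and 0 members were called. Pdk2, at 0.11, was the member with an estimate above 0 (adjusted p = 0.296). In 2.55% of all genes tested and in 0 of 9 members, both myostatin-reduced groups lay wholly below the wild-type group of the same activity level.

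Among inactive mice 0 of 9 members were called for genotype in limma, against 2.51% of all genes (182, and 23 to 216 without a mouse), and 3 members and 1262 of the 7247 genes were under 0.05 before adjustment. IM mice were below IW mice without overlap in Pdhb, Dld and Pdp1. The share of all genes that did so among inactive mice was not counted, so this is a description. The log2 difference was -0.26 for Pdhb (adjusted p = 0.0764), -0.19 for Dld (adjusted p = 0.279) and -0.22 for Pdp1 (adjusted p = 0.2175) in limma. Among active mice 0 members were called in limma, against 0.207% of all genes (15, and 4 to 18 without a mouse). Before adjustment, 2 members and 894 of the 7247 genes were under 0.05. These 2 were Pdk2, higher in AM mice by 0.22 (adjusted p = 0.312), and Pdp1, lower at -0.197 (adjusted p = 0.396). Pdha1 was not one of them and was at -0.16 (adjusted p = 0.451).

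Whether activity acted alike in both genotypes was asked by the interaction, (AM - IM) - (AW - IW). It called 0 members and 0% of all genes in limma, with 0 members and 297 genes at an unadjusted p-value under 0.05. The interaction was 0.19 for Pdhb (interval -0.02 to 0.41), 0.22 for Pdk2 (-0.02 to 0.47) and 0.495 for Pdk4 (-0.93 to 1.92), and each of these intervals held 0. Leaving out a mouse moved the interaction of Pdk4 between 0.11 and 0.98. Taken by genotype, the increase was 18.0% in wild-type and 34.9% in myostatin-reduced mice for Pdhb, 24.9% and 34.65% for Pdhx, and 22.0% and 18.3% for Pdha1. In myostatin-reduced mice 5 members were called (Pdhb, Dlat, Dld, Pdhx and Pdp1), against 7.84% of all genes, while Pdha1 had a limma adjusted p of 0.0836. In wild-type mice 0 members were called in limma, against 0.0276% of all genes (2 of 7247), and 6 members and 1067 genes were under 0.05 before adjustment. Sample weights called 6 members and 415 genes there. In myostatin-reduced mice 2 members were called without IM mouse 1, 2 or 3 and 1 without AM mouse 2, while the calls over all genes went from 568 to 219, 142, 118 and 86. Once the score of the slow-fibre markers was added to the fit, 2 members and 185 genes were called.

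Fibre markers moved alongside these genes. All 10 slow-fibre markers had estimates above 0 with activity, 1 of which (Casq2) was called, and their summed level ranged from 82.7 to 1321 in IW, 72.5 to 102.5 in IM, 141 to 1763 in AW and 109 to 1295 in AM mice. In the slow-fibre score, the mean log2 deviation of the 10 markers, IW mouse 1 was at 2.02 and AM mouse 3 at -1.67. These were the highest inactive and the lowest active mouse, in that order, in every subunit and in Pdp1. Of 6 fast glycolytic markers, 2 were called lower (Myh4 and Actn3), and the list summed to 121400 to 153600 in IW, 165500 to 170800 in IM, 97580 to 129300 in AW and 99590 to 139700 in AM mice. Among the muscle markers, the myoglobin gene Mb, abundant in oxidative fibres, rose with activity by 1.82 (limma adjusted p = 0.00190), and Myh1, the myosin of type IIx fibres, by 1.51 (adjusted p = 0.00190). Mb was 1971 ± 955 in IW, 460.1 ± 153 in IM, 3951 ± 1464 in AW and 2746 ± 798 in AM mice (SD, n = 3). With the score as a covariate all 6 genes remained called, with log2 changes from 0.18 for Pdha1 (limma adjusted p = 0.0481) to 0.34 for Pdhx (adjusted p = 0.00930). With the group means removed, r with the score over the 12 mice was 0.80 for Pdha1, 0.665 for Pdhb, 0.81 for Dlat, 0.81 for Dld, 0.40 for Pdhx and 0.41 for Pdp1. For the kinases it was 0.76 for Pdk1, 0.62 for Pdk4 and -0.13 for Pdk2.

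**Figure D4:**
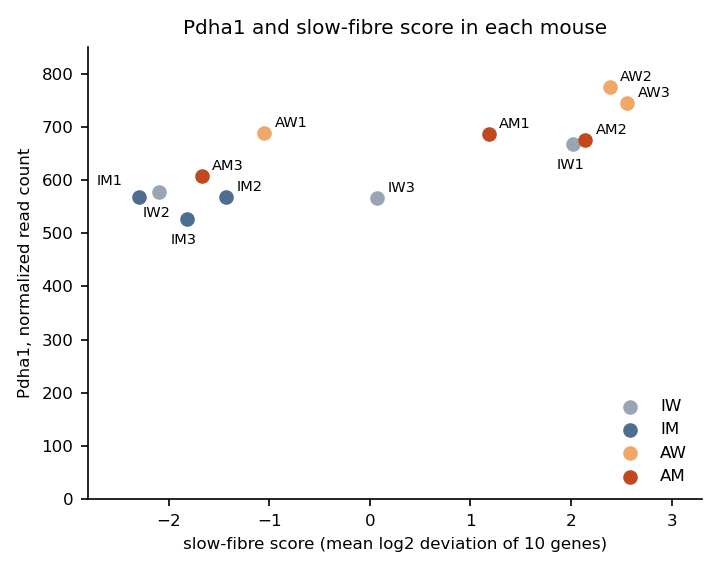
Pdha1 normalized read count (y axis, from 0) against the slow-fibre score (x axis, mean log2 deviation of 10 slow-fibre markers from their means) in each of 12 mice, coloured by group. The 5 mice at the right, with the highest scores, have Pdha1 counts of 668 to 774, and AW mouse 1 and AM mouse 3 lie above the IM mice at like scores.

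Of the markers of other cell types, 5 of 6 endothelial genes were called higher with activity. Their summed level was 249 to 314 in IW, 215 to 220.2 in IM, 250.3 to 425 in AW and 281 to 474 in AM mice. Of the adipocyte list, 1 of 2 genes tested (Fabp4) was called higher, with sums of 105 to 178 in inactive and 136 to 229.8 in active mice. None of 5 fibroblast, 1 macrophage and 3 Schwann cell genes tested was called in limma. The part of these cells in the levels of the complex was not tested.

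The genes most like Pdha1 over the 12 mice, among 2547 others with a mean of at least 50, all belong to mitochondria. They were Hspa9, a matrix chaperone (r = 0.979), Sod2, the matrix superoxide dismutase (0.975), Immt, a cristae scaffold (0.975), Mfn1, a fusion protein (0.970), and Sdha, a succinate dehydrogenase subunit (0.968). They were chosen for this likeness, so their own changes with activity are not given.

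The genes most like Pdk4 were Lrrc2 (r = 0.828), the mitochondrial uncoupling protein gene Ucp3 (0.818), the catalase gene Cat (0.809), Akap2 (0.804) and the phosphodiesterase gene Pde4d (0.801). Ucp3 was 118, 101 and 118 in IW, 98.5, 189 and 70.7 in IM, 69.6, 145 and 96.6 in AW and 79.6, 123 and 78.9 in AM mice. In IM, AW and AM mice alike, mouse 2 had the highest value of both genes. With the group means removed, r with Pdk4 over the 12 mice was 0.96 for Ucp3, and 0.766 (Cat) to 0.872 (Pde4d) for the rest. These genes were chosen for their likeness to Pdk4 in the same mice, so high values of r were built in.

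**Figure D5:**
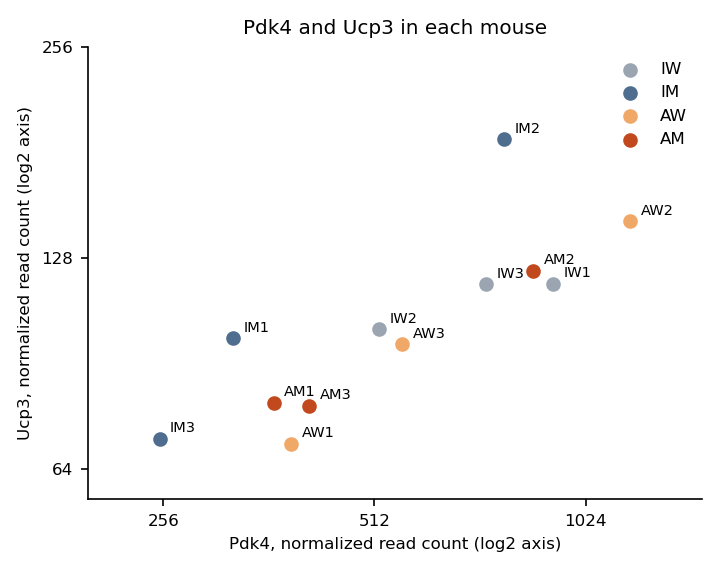
Normalized read counts of Pdk4 (x axis) and Ucp3 (y axis), both on log2 axes, in 12 mice coloured by group and labelled by group and mouse number. Both genes rank the mice within a group nearly alike, and IM, AW and AM mouse 2 stand at the upper right of their groups.

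Genes around the complex were read from hand-written lists. Beside the counts of these lists and of the markers above, 14.5% of all genes tested were called with activity and 7.99% were called higher. Of 9 genes of pyruvate entry and other fates of pyruvate, all tested, 3 were called higher with activity and 0 lower, with a median of 0.12. Ldhb, the lactate dehydrogenase subunit of oxidative tissue, had the largest change, 2.08 (SE 0.346, limma adjusted p = 0.00284). Its normalized read count was 90.5 ± 50.4 in IW, 32.8 ± 15.7 in IM, 247 ± 119.5 in AW and 210.4 ± 58.9 in AM mice (SD, n = 3). Gpt, an alanine transaminase, rose by 0.70 (adjusted p = 0.00280). Brp44, the mitochondrial pyruvate carrier subunit now named Mpc2, rose by 0.36 (adjusted p = 0.00179). Brp44l (Mpc1), the partner subunit of that carrier, was at 0.12 (adjusted p = 0.188). The pyruvate carboxylase gene Pcx was called for genotype over both activity levels, higher by 0.39 in myostatin-reduced mice (limma adjusted p = 0.0353).

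Of 12 listed genes of the sister complexes that share Dld, 8 were tested and 4 were called higher with activity, with a median of 0.22. Dlst, the core of the 2-oxoglutarate dehydrogenase complex, rose by 0.415 (limma adjusted p = 0.00179). Ppm1k, the phosphatase of the branched-chain complex, rose by 0.47 (adjusted p = 0.0113), and Bckdhb, a subunit of that complex, by 0.36 (adjusted p = 0.0102). Of 8 listed accessory and cofactor genes 4 were tested, and 1 was called, the monocarboxylate transporter Slc16a1 (0.51, adjusted p = 0.0138).

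Of 11 listed regulators of Pdk4, 9 were tested, 2 were called higher with activity and 1 lower. The estrogen-related receptors Esrrg and Esrra rose by 0.83 (limma adjusted p = 0.0293) and 0.365 (adjusted p = 0.00290), and the retinoid receptor Rxra was lower, at -0.22 (adjusted p = 0.0449). Of 18 listed fatty acid genes 14 were tested, and 10 were called higher and 0 lower, with a median of 0.44. Fabp3, a fatty acid carrier, rose by 1.075 (limma adjusted p = 0.00428), the lipoprotein lipase gene Lpl by 0.89 (adjusted p = 0.0164) and the fatty acid transporter gene Cd36 by 0.88 (adjusted p = 0.0122). Ucp3 of the same list was at -0.215 (adjusted p = 0.547). The acyl-CoA dehydrogenase gene Acadl, named after its values were seen, was called lower in IM than in IW mice, at -0.88 (limma adjusted p = 0.0407), and was at -0.51 over both activity levels (adjusted p = 0.0534). The interaction called 0 genes of any of these lists.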

How the data were processed

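Polyadenylated RNA of triceps brachii was sequenced on an Illumina Genome Analyzer by the authors, mapped with CASAVA (version not given in the sources used here) to mm9 and counted in RefSeq exons. The deposited values are normalized read counts (unit: signal), which the authors scaled to an equal trimmed mean. The step between low values, the worth of 1 read, gave the depth. Whole multiples of it (within 0.1 step) made up 90.1% to 92.8% of values under 5 but 71.6% to 74.7% of those between 20 and 50, so whole reads were not recovered and no count model was run.

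Groups and mouse numbers came from the sample titles. Genes with a mean of at least 10 were fitted on log2(value + 1) with limma 3.58.1 (R 4.3.3), with 1 mean per group, a trended prior, two-sided p-values and Benjamini-Hochberg adjustment over 7247 genes. A log2 change on this scale understates that of low genes. The script was tested on simulated data. The rule for named genes took all members, Mstn, at most 3 called genes per pathway list with the largest change with activity or genotype, and the 5 genes with the highest r with Pdk4 or Pdha1. Brp44l, Acadl, Ucp3 among the fatty acid genes, Map3k15 and the cell type markers were named outside it, after their values were seen. Members, lists and tests were chosen with earlier results of these data known.

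Mouse numbers were checked for pairing by the correlation of deviations from the group means. All 3 same-numbered pairs were above 0.1 only for IM with AM mice (0.171 to 0.322), and over all pairs of groups r was -0.605 to 0.484. Alternatives were pseudocounts of 0.1 and 5, no filter, quantile and median-ratio scaling, sample weights, a replicate block, a slow-fibre covariate and leaving out each mouse. Positions are from GENCODE on NCBIM37, matched by symbol.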

Additional observations from a re-analysis of the deposited data

How the results depend on the processing

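The count of members called with activity was 6 in all 20 alternatives, and with the replicate block it was also 6, with 5 in myostatin-reduced mice. The block left the count of members called as it was in all 7 contrasts. The interaction called 0 members in all 20. For genotype, sample weights called 1 member (Pdp1, -0.24, adjusted p = 0.0229), and leaving out a mouse called 0 to 1, the 1 being Pdp1 without AM replicate 1 (-0.26, adjusted p = 0.0171). In wild-type mice sample weights called 6 members for activity, and the fits without a mouse 0 to 1, the 1 being without AW replicate 1; over all genes these fits called 415 and 198, against 2. In myostatin-reduced mice the slow-fibre covariate left 2 members called, and 185 genes against 568, and the fits without a mouse 1 to 5 members and 86 to 1098 genes. The cause of these shifts was not tested.

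Signs turned in estimates near 0 that were never called. The genotype change of Pdhx was 0.005 with quantile scaling and 0.024 with the slow-fibre covariate. The interaction of Dld was -0.007 with sample weights and -0.003 with the covariate, under which Pdp1 was at -0.002. The covariate also turned the activity change of Pdk1 to -0.03 and of Pdk4 to -0.36. Without a mouse, ranges that crossed 0 were -0.03 to 0.035 for Pdhx (genotype), -0.126 to 0.34 for Pdk4 (activity), and for the interaction -0.119 to 0.011 for Pdha1, -0.013 to 0.14 for Dlat, -0.043 to 0.11 for Dld and -0.081 to 0.093 for Pdp1.

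Over all genes, 1051 were called with activity, 1740 with sample weights, 399 with the slow-fibre covariate and 552 to 1488 without a mouse. For genotype 419 were called, and 182 to 573 without a mouse. The interval of the interaction was widest for Pdk4, at -0.93 to 1.92.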

Other observations

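The ratio of the Pdha1 count to the Dlat count, looked at after its values were seen and not tested, was lower in active mice. It was 2.52 ± 0.0272 in IW, 2.52 ± 0.0707 in IM, 2.44 ± 0.0349 in AW and 2.27 ± 0.113 in AM mice (SD, n = 3). Inactive mice lay between 2.44 and 2.58 and active mice between 2.14 and 2.48, so the levels overlapped over all 12 mice. Pdha1 also had the smallest log2 change with activity of the 5 subunits, 0.265, and Dlat was at 0.36.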
